A study of Sus scrofa with 12 samples.

Results

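The genes examined here encode the proteins of the cytosolic ribosome, the particle that translates messenger RNA in the cytoplasm. Rows of the gene table were taken where the gene symbol had the form of a ribosomal protein of the small or large subunit (RPS or RPL with a number), or was RPSA, RPLP0, RPLP1 or RPLP2, without the RPS6K kinases and without copies on chromosome Y. This gave 47 of 21169 rows, 46 of them with enough counts to be tested, of which 20 encode proteins of the small 40S subunit and 26 proteins of the large 60S subunit or their relatives. RPL10L, a retrogene copy of RPL10 best known from testis, had 0 counts in all 12 libraries. A further 34 ribosomal protein rows, among them RPS2, RPS6, RPS19, RPL4, RPL13A and RPLP1, carried no symbol in the table and are described separately below.

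RNA came from the liver of Hezuo and Bama pigs, both small Chinese breeds. Animals were kept at room temperature (23 ± 2 °C) or under cold stress (-15 ± 2 °C), and all libraries are labelled day 15, with 3 pigs in each of the 4 groups of breed and temperature. The study asked which genes and non-coding RNAs in the liver accompany the cold resistance of the Hezuo pig. No genetic change or drug was applied, and the labels give neither the age nor the sex of the animals.

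A ribosome holds a single copy of most of its proteins, and cells make the proteins of both subunits in similar amounts. In mammals their messenger RNAs, and those of several elongation and initiation factors, begin with a terminal oligopyrimidine (TOP) tract, which lets the kinase mTORC1 and the RNA-binding protein LARP1 control their translation and stability together with nutrient and growth signals. In the liver, which secretes much of the plasma protein, ribosome content is known to follow feeding and protein supply.

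Gene counts per library lay between 20041285 and 30188037, and the 47 rows held 1.17% of all of them. The 46 tested genes had mean counts between 97.8 and 28809 per library and 42 of them had at least 1000. The tissue label was checked against liver markers: albumin alone took between 1.53% and 12.01% of the counts of each library. A transcript of the Y chromosome was present in 0 of 3 Bama pigs at room temperature, in 2 of 3 Bama pigs in the cold (replicates 1 and 3) and in 6 of 6 Hezuo pigs, so Y-linked RNA is partly confounded with temperature within Bama and with breed in the cold, and it cannot be told apart from breed at room temperature. The libraries were made from bulk tissue, where fewer cells of a type and less RNA per cell cannot be told apart.

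Levels between genes were compared as FPKM, fragment counts divided by the length of the gene model and the size of the library. RPL10, a late-joining protein near the peptidyl transferase centre, had the highest mean over the 12 libraries, 1489 FPKM. RPL11, a partner of 5S ribosomal RNA, followed with 616, RPLP0, the base of the stalk that recruits elongation factors, with 597, and RPS16, a 40S protein that reaches the decoding region, with 496. RPL10 lay between 1022 and 2001 FPKM, above every library of the other genes, whereas the ranges of RPL11, RPLP0 and RPS16 overlapped. Across all 46 genes the median of the mean levels was 209.9 FPKM, and 36 genes reached 100 FPKM.

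At the low end stood RPL7L1 with a mean of 10.9 FPKM, RPL26L1 with 10.2, RPS14 with 6.79 and RPL3L with 2.62. Of these, 3 encode relatives of a core protein, but RPS14 is itself a core protein of the 40S platform. Its row held a mean of only 116 counts, and the sources used here do not name the counting tool or how it treated reads shared with near-identical copies, so the RPS14 values are uncertain. The gene models also limit the comparison between genes: dividing counts by FPKM gave a length of 5911 bases for RPL3, 4611 for RPL6 and 3707 for RPL35 against 754 for RPL10, so genes with long models may be listed too low. Between groups, offsets for gene length moved the number of members called from 1 to 0 for Hezuo against Bama in the cold and from 1 to 2 for cold averaged over breeds.

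**Figure D1:**
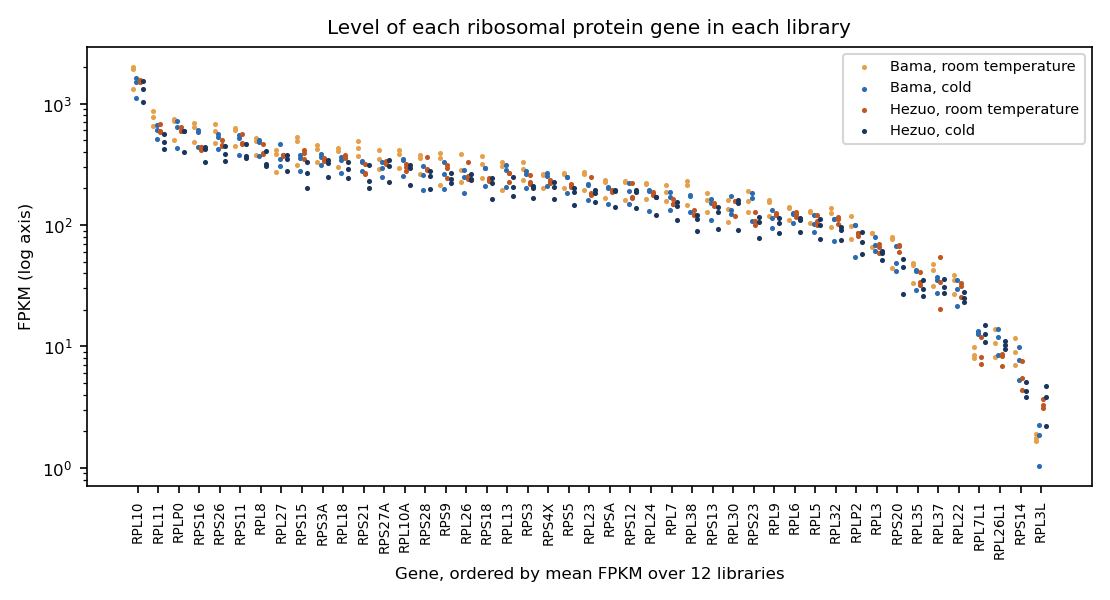
FPKM (log axis) of 45 of the 46 tested ribosomal protein genes in each of the 12 libraries, ordered by mean level and coloured by group, 3 points per group. RPL10 stands highest at a mean of 1489 FPKM, 36 genes have means of at least 100, and RPL3L, RPS14, RPL26L1 and RPL7L1 lie lowest.

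The summed level of these messenger RNAs differed from library to library. The share of all gene counts held by the 47 rows was 1.43%, 1.06% and 1.51% in the room-temperature Bama pigs (replicates 1 to 3), and 1.24%, 1.30% and 0.937% in the cold Bama pigs. It was 1.13%, 1.20% and 1.16% in room-temperature Hezuo, and 1.11%, 0.824% and 1.03% in cold Hezuo. The Hezuo groups did not overlap, whereas in Bama the second room-temperature library lay below 2 of the 3 cold ones. As group means the share was 1.33% ± 0.237 (SD, n = 3) and 1.16% ± 0.195 in room-temperature Bama and in the cold, and 1.16% ± 0.0331 and 0.991% ± 0.150 in Hezuo.

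Shares also depend on how much of a library the most abundant liver transcripts take, so TMM-scaled CPM (counts relative to a scaled library size), which sets the bulk of genes level between libraries, were used for all tests. On that scale the median ribosomal protein gene deviated from its own mean over the 12 libraries by 0.25, -0.07 and 0.29 (log2) in room-temperature Bama and by -0.14, -0.02 and -0.43 in cold Bama. The values were 0.15, 0.21 and 0.15 in room-temperature Hezuo and 0.08, -0.42 and -0.02 in cold Hezuo. The 2 lowest libraries were thus both from the cold, the third Bama and the second Hezuo pig, and they held the lowest value of 20 and 22 of the 46 genes. Albumin took 7.12% of counts in the first of these libraries, the highest share of its group, and 3.05% in the other, the lowest share of its group.

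**Figure D2:**
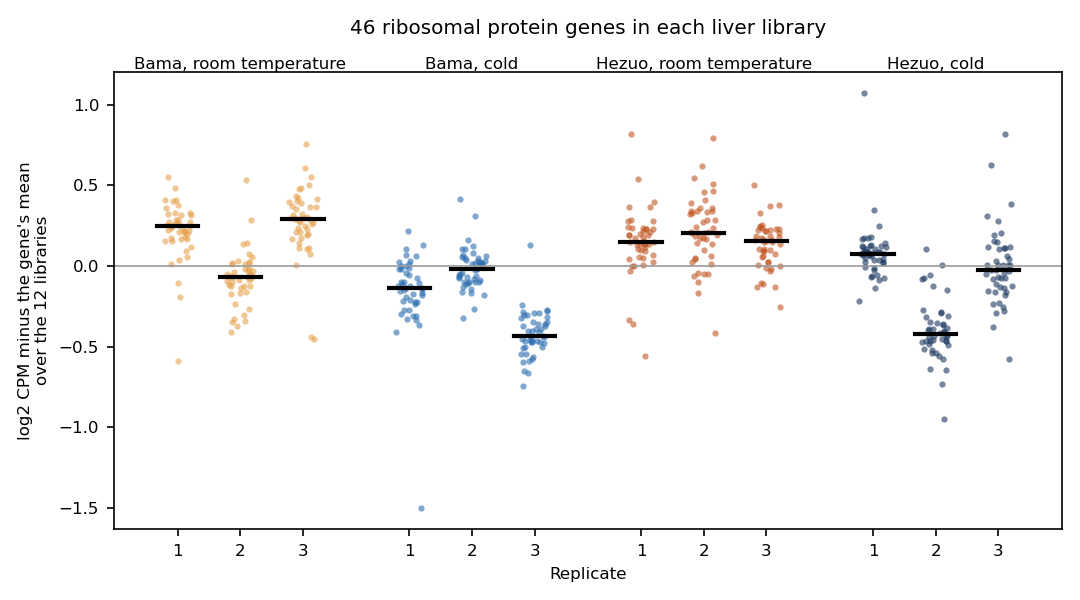
Each point is 1 of 46 ribosomal protein genes in 1 library, as its log2 CPM minus its mean over the 12 libraries, and bars give the median of each library. The medians lie between 0.15 and 0.21 in room-temperature Hezuo, while both cold groups hold a library below -0.4.

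Cold and room temperature were compared first in Bama pigs. Of the 46 genes, 45 had a negative log2 fold change, against 51.4% of all genes, with a median log2 fold change of -0.35, beside -0.01 for all 13532 genes tested. No gene passed the test (edgeR quasi-likelihood, adjusted p below 0.05 over all genes), in a comparison that called 0.924% of all genes, and the smallest adjusted p among the 46 was 0.12. At an unadjusted p below 0.05, 15 of 46 were lower and 0 higher, against 8.01% and 7.78% of all genes. In 16 genes every cold library lay below every room-temperature library, against 10.2% of all genes, and in 1, RPL7L1, every cold library lay above, against 11.2%. With the presence of Y-linked RNA as a covariate the median in Bama was -0.19, a value that rests on the 1 cold Bama pig without such RNA. DESeq2 on the same counts called 3 of the 46 lower (RPL11, RPL9 and RPS21), where it called 5.04% of all genes.

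RPS21, a small protein on the body of the 40S subunit, had the smallest p in Bama. It measured 157, 145 and 175 CPM at room temperature and 105, 111 and 97.8 CPM in the cold, so the groups did not overlap (log2 fold change -0.60 ± 0.17 SE, adjusted p = 0.12). RPL9, a 60S protein near the site where elongation factors bind, measured 336, 274 and 332 CPM at room temperature and 214, 260 and 197 CPM in the cold (-0.49 ± 0.16, adjusted p = 0.17). RPS28, which lies by the exit of the messenger RNA channel, measured 111, 88.5 and 112 CPM against 70.9, 85.5 and 57.7 CPM (-0.54 ± 0.19, adjusted p = 0.19). In both genes the lowest room-temperature library stood only a little above the highest cold one.

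In Hezuo pigs 43 of the 46 genes had a negative log2 fold change, against 51.6% of all genes, with a median log2 fold change of -0.27, beside -0.01 for all genes. Again no gene passed the test, where 0.281% of all genes did, and the smallest adjusted p was 0.219. At an unadjusted p below 0.05, 7 of 46 were lower and 1, RPL7L1, higher, against 7.25% and 8.31% of all genes. Every cold library lay below every room-temperature library for 18 genes, against 10.9% of all genes. Without the second cold Hezuo pig the median was -0.14. DESeq2 called 0 of the 46 in this comparison, and 3.99% of all genes.

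RPS20, a protein of the 40S head that is ubiquitinated when ribosomes collide, had the largest difference in Hezuo. It measured 265, 252 and 217 CPM at room temperature and 192, 94.6 and 166 CPM in the cold, with no overlap (-0.70 ± 0.27, adjusted p = 0.24). RPS15, whose tail reaches the decoding site, measured 245, 213 and 247 CPM against 194, 114 and 161 CPM (-0.59 ± 0.21, adjusted p = 0.22). RPL18 measured 287, 298 and 276 CPM against 250, 180 and 224 CPM (-0.40 ± 0.16, adjusted p = 0.26). In all 3 genes the second cold pig was the lowest of the 6.

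With both breeds in a single contrast, the response to cold averaged over breeds, 44 of the 46 genes were negative, against 51.3% of all genes, and the median was -0.32. RPL11 was the only gene of the 46 that passed the test, where 3.89% of all genes were called and 1.94% were called lower. At an unadjusted p below 0.05, 30 of 46 were lower and 1 higher, against 11.8% of all genes lower and 11.7% higher. These genes moved together within a library. Of the 46, 45 lay below their own mean in the third cold Bama pig and 44 in the second cold Hezuo pig. In the second cold Bama pig 24 did, and in the first cold Hezuo pig 10. Counts of genes, here and within each breed, are therefore not counts of independent observations. For 9 genes, RPL6, RPL9, RPL11, RPL18 and RPS28 among them, the cold libraries lay below the room-temperature libraries in both breeds, against 2.69% of all genes. DESeq2 called 15 of the 46, 14 of them lower and RPL7L1 higher, in a comparison where it called 11% of all genes.

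RPL11 fell in the cold. It binds 5S ribosomal RNA together with RPL5, and the free complex is known to bind the ubiquitin ligase MDM2. It measured 423, 387 and 461 CPM in room-temperature Bama and 291, 335 and 268 CPM in cold Bama. In Hezuo it measured 386, 439 and 376 CPM at room temperature and 349, 255 and 309 CPM in the cold. All 6 cold libraries lay below all 6 room-temperature libraries, at a log2 fold change of -0.45 ± 0.11 (SE) averaged over breeds (edgeR adjusted p = 0.0438). The call was narrow: it held in 3 of 12 fits that each left out a library, with adjusted p up to 0.111. Over 10 other settings RPL11 was called in 6, with adjusted p up to 0.349, and not with Y-linked RNA as a covariate. RPL5 itself measured -0.32 ± 0.12 (adjusted p = 0.135).

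**Figure D3:**
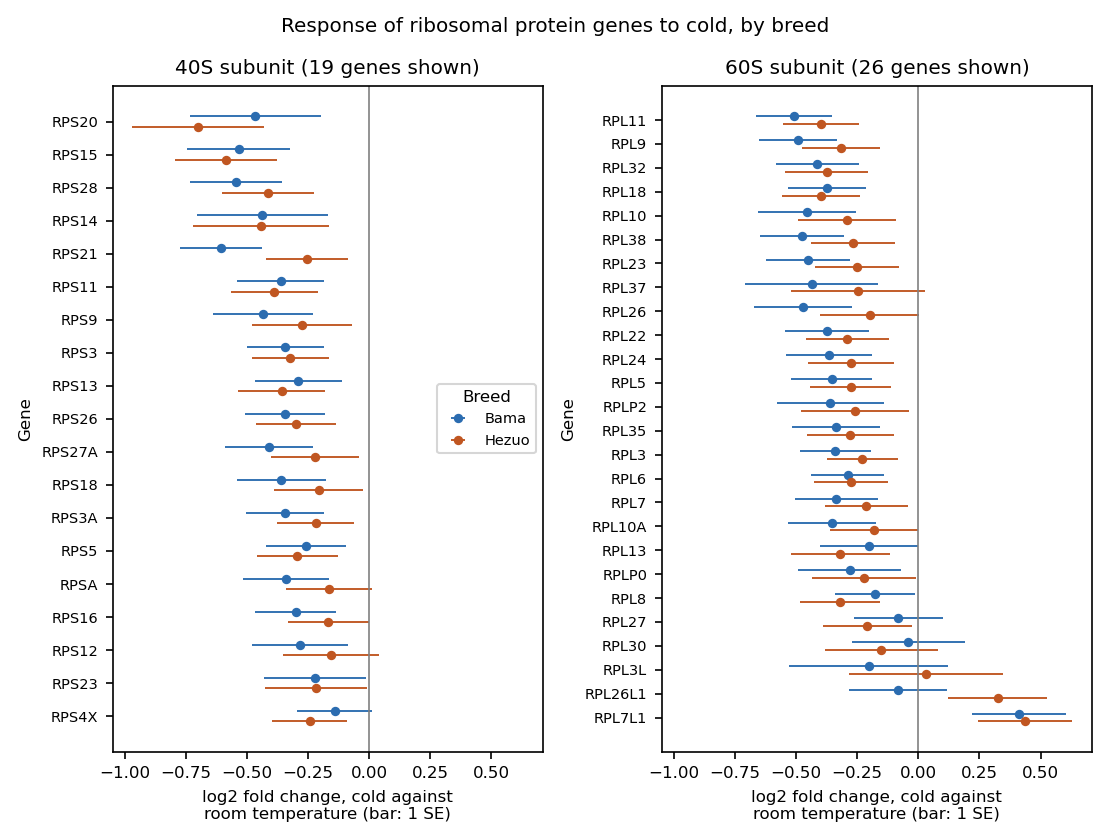
Log2 fold change in the cold for 45 of the 46 tested genes, Bama in blue and Hezuo in orange, with bars of 1 standard error, 40S genes on the left and 60S genes on the right. Nearly all points lie left of 0, RPL7L1 lies right of 0 in both breeds, and RPL26L1 and RPL3L change side between breeds.

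Genes of the small and the large subunit had similar medians in the cold. The 20 genes of the 40S subunit had a median log2 fold change of -0.35 in Bama and -0.28 in Hezuo, and the 26 genes of the 60S subunit had -0.35 and -0.26. All 20 of the 40S genes were negative in both breeds. Without RPL3L, RPL7L1 and RPL26L1, the remaining 43 genes were all negative in both breeds as well, with medians of -0.36 in Bama and -0.28 in Hezuo. The direction of the median held under each of the scalings tried.

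Among 40S proteins, averaged over breeds, RPS20 stood at -0.58 ± 0.19 (adjusted p = 0.10), RPS15 at -0.56 ± 0.15 (adjusted p = 0.057) and RPS28 at -0.48 ± 0.13 (adjusted p = 0.065), the 3 lowest values of the 46. RPS3, at the entry of the messenger RNA channel, stood at -0.33 ± 0.11, RPS27A, made as a fusion with ubiquitin, at -0.31 ± 0.13, and RPSA, also known as the laminin receptor precursor, at -0.25 ± 0.12. RPS4X, the X-linked form of a 40S protein, was the smallest of the 40S differences at -0.19 ± 0.11. None of these passed the test. The uncertain RPS14 row measured between 2.86 and 7.19 CPM in all libraries, at -0.44 ± 0.19.

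Among 60S proteins, RPL10 measured 1431, 1006 and 1335 CPM in room-temperature Bama and 947, 1047 and 756 CPM in the cold, where the groups overlapped. In Hezuo it measured 1292, 1258 and 1284 CPM against 1237, 805 and 1086 CPM, with no overlap (averaged over breeds -0.37 ± 0.14, adjusted p = 0.14). RPL3, next to the peptidyl transferase centre, stood at -0.28 ± 0.10. RPL23, which like RPL11 can bind MDM2, stood at -0.35 ± 0.12, and RPL26, which lies near the exit of the peptide tunnel, at -0.33 ± 0.14. The stalk proteins RPLP0 and RPLP2 stood at -0.25 ± 0.15 and -0.31 ± 0.15. RPL30 and RPL27 were the core 60S proteins nearest to 0, at -0.10 ± 0.16 and -0.14 ± 0.13. The adjusted p of these genes lay between 0.115 and 0.767 (edgeR).

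The 3 highest values in the cold averaged over breeds belonged to relatives of core proteins. RPL7L1, a homologue of RPL7 known from early nucleolar steps of 60S assembly, measured 37.9, 33.5 and 31.9 CPM in room-temperature Bama and 45.4, 44.6 and 47.4 CPM in the cold, without overlap. In Hezuo it measured 55.8, 32.5 and 36.4 CPM against 55.2, 46.6 and 67.0 CPM, with overlap through the first room-temperature pig. Averaged over breeds it stood at 0.42 ± 0.14 (adjusted p = 0.094), the highest value of the 46, and did not pass the test, while RPL7 itself stood at -0.27. As a percentage of the FPKM of RPL7, RPL7L1 stood between 3.98 and 5.24 in room-temperature Bama and between 6.80 and 9.58 in the cold. In Hezuo the percentage lay between 4.85 and 8.12 at room temperature and between 8.73 and 10.01 in the cold, so it did not overlap between temperatures in either breed.

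RPL26L1, nearly identical to RPL26 so that reads may be divided between them, measured between 5.35 and 8.835 CPM in all libraries. It stood at 0.32 ± 0.20 in cold Hezuo, where the groups did not overlap, and at -0.08 ± 0.20 in Bama (adjusted p = 0.45 and 0.88). The breed difference in its response to cold was 0.41 ± 0.28 (adjusted p = 0.81).

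Hezuo and Bama differed in RPL3L. This relative of RPL3 replaces it mainly in ribosomes of striated muscle, and it was scarce in these livers, with a mean of 97.8 counts per library. It measured 2.36, 2.67 and 2.59 CPM in room-temperature Bama and 6.26, 5.44 and 5.02 CPM in room-temperature Hezuo. In the cold it measured 1.25, 2.84 and 2.49 CPM in Bama and 7.46, 3.41 and 6.25 CPM in Hezuo. All 6 Hezuo libraries lay above all 6 Bama libraries. RPL3L was higher in cold Hezuo at a log2 fold change of 1.37 ± 0.33 (edgeR adjusted p = 0.0477). At room temperature it stood at 1.13 ± 0.32 (adjusted p = 0.097), which did not pass. The call in the cold held in 1 of 12 fits that each left out a library, that without the second cold Hezuo pig, with adjusted p up to 0.15 in the others, while DESeq2 called RPL3L at both temperatures, among 7.66% and 9.07% of all genes. RPL3L amounted to 2.28% ± 0.362 (SD, n = 3) of the FPKM of RPL3 in room-temperature Bama and to 5.27% ± 0.907 in Hezuo, and to 2.55% ± 1.07 and 6.17% ± 1.84 in the cold. The long model of RPL3 may lower its FPKM and so raise these shares. By counts, RPL3L was 0.569% of RPL3 in room-temperature Bama and 1.31% in Hezuo, and 0.631% and 1.54% in the cold.

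**Figure D4:**
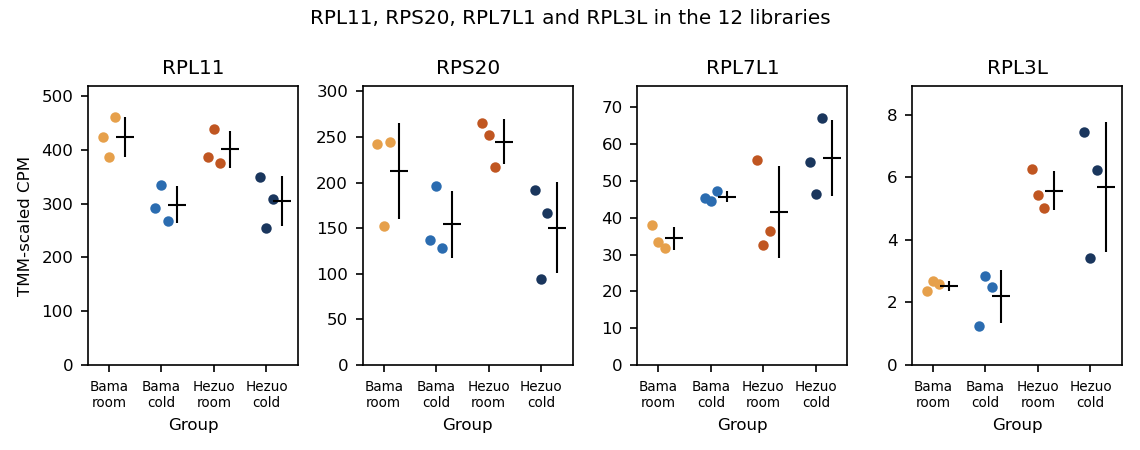
TMM-scaled CPM of RPL11, RPS20, RPL7L1 and RPL3L in the 12 libraries, 3 points per group with the mean and SD beside them, each panel from 0. RPL11 lies lower in the cold in every library, and RPL3L lies higher in every Hezuo library than in any Bama library.

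Apart from RPL3L the breeds did not differ detectably in these genes. The median log2 fold change of Hezuo against Bama was 0.03 at room temperature, where 0 of the 46 genes and 1.08% of all genes were called, and 0.11 in the cold, where RPL3L was the 1 gene of the 46 called beside 2.76% of all genes (1.8% higher in Hezuo). With the covariate for Y-linked RNA the room-temperature median was 0.22. Scaled by library totals alone both medians turned negative, to -0.20 and -0.21, while the medians of all genes moved to -0.22 and -0.32. The median in the cold was -0.01 without the third cold Bama pig and 0.22 without the second cold Hezuo pig. RPL38, a 60S protein known for its part in the translation of Hox messenger RNAs, had the smallest p after RPL3L at room temperature. It measured 89.6, 67.1 and 93.2 CPM in Bama and 63.4, 57.0 and 55.9 CPM in Hezuo (-0.50 ± 0.17, adjusted p = 0.14), without overlap. RPL26 in the cold measured 122.7, 142 and 97.0 CPM in Bama and 167, 145 and 156 CPM in Hezuo (0.37 ± 0.20, adjusted p = 0.32).

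The breeds were also compared in their response to cold. The difference between the responses (Hezuo minus Bama) had a median of 0.10 over the 46 genes and a median standard error of 0.25 per gene. No gene of the 46 passed this test, 0.00739% of all genes did, and 0 of the 46 reached an unadjusted p below 0.05, against 8.02% of all genes. DESeq2 called 0 of the 46, and 1.03% of all genes. RPS21 had the smallest p, at 0.35 ± 0.24 (adjusted p = 0.79). The comparisons of temperature and of breed use the same 12 libraries and are therefore not independent of each other.

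The 34 ribosomal protein rows without a symbol in the table were named through their RefSeq or Ensembl identifiers, and 33 of them were tested. This second set was chosen after the table had been seen. Its median log2 fold change was -0.37 in Bama, where all 33 were negative, -0.31 in Hezuo, where 30 were, and -0.32 averaged over breeds. RPL27A was the 1 row of the 33 called averaged over breeds, where 3.89% of all genes were called and 1.94% were called lower. It measured 532, 484 and 575 CPM in room-temperature Bama and 412, 390 and 314 CPM in the cold, and 558, 568 and 569 CPM against 486, 312 and 381 CPM in Hezuo. In each breed the cold libraries lay below the room-temperature libraries (-0.52 ± 0.12 averaged over breeds, edgeR adjusted p = 0.042). How this call depends on single libraries or other settings is not reported here.

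RPL13A, known outside the ribosome for silencing inflammatory messenger RNAs, stood at -0.43 ± 0.13 averaged over breeds (adjusted p = 0.078). RPS6, the substrate of S6 kinase, stood at -0.29 ± 0.11, RPS19, mutated in Diamond-Blackfan anaemia, at -0.34 ± 0.17, RPS2 at -0.21 ± 0.13 and RPL4 at -0.23 ± 0.11. RPLP1 of the stalk stood at -0.26 ± 0.14. The relatives RPS27L and RPL22L1 of this set stood at 0.00 ± 0.10 and -0.16 ± 0.19. The core proteins named here all lay below 0. Together, both sets held between 1.39% and 2.50% of the counts of a library. Rows under other names are not in this share, among them RPL17-C18orf32, described as ribosomal protein L17, with a mean of 11696.5 counts.

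Another 3 ribosomal proteins, which carry other names (FAU, RACK1 and RPL36AL), stood at -0.31, -0.25 and -0.33 averaged over breeds, and none passed the test. Of 16 other genes whose messenger RNAs are of the TOP class, 15 were negative, with a median of -0.32. The test called 2 of them, both lower, where 1.94% of all genes were called lower. These were EIF3H, a subunit of initiation factor 3, at -0.41 ± 0.10 (adjusted p = 0.044), and HNRNPA1, a splicing regulator, at -0.39 ± 0.10 (adjusted p = 0.0498). EIF3H measured 153 ± 12.4 CPM (SD, n = 3) in room-temperature Bama and 119 ± 15.7 in the cold, and 152 ± 13.5 against 112 ± 11.8 in Hezuo. IPO7, an import receptor, was the member of this list above 0, at 0.17. Without 1 library EIF3H was called in 3 of 12 fits and HNRNPA1 in 0 of 12, with adjusted p from 0.054 to 0.119. This list shares 9 genes with the translation factors, among them EEF1A1, EEF2 and EIF4B, which lay between -0.45 and -0.25. The 31 other factors lay between -0.47 and 0.50 with a median of 0.16, 12 of them negative, so the ranges overlap, and the difference was not tested.

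Of the 40 translation factors EIF3H fell and 3 rose, where 1.94% of all genes were called lower and 1.95% higher. The 3 were EIF4G1, the scaffold of the cap-binding complex, at 0.50 ± 0.12, EIF5B, which joins the subunits, at 0.41 ± 0.09, and GSPT1, a termination factor, at 0.35 ± 0.09 (adjusted p = 0.040, 0.039 and 0.049). EIF4G1 measured 289 ± 41.5 and 400 ± 69.8 CPM in Bama and 344 ± 38.8 and 496 ± 34.8 CPM in Hezuo, at room temperature and in the cold. EIF4G1, EIF5B and GSPT1 passed in 2, 3 and 1 of the 12 fits that each left out a library.

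Of 66 ribosome biogenesis genes, 56 were positive and 10 negative, against 51.3% of all genes negative, with a median of 0.19. Of these, 4 rose in the cold, where 1.95% of all genes were called higher: GNL3, a nucleolar GTPase, at 0.76 ± 0.13, DDX52, a helicase, at 0.66 ± 0.14, RRS1, which brings the 5S particle to the pre-60S subunit, at 0.80 ± 0.20, and PPAN, a pre-60S factor, at 0.49 ± 0.12 (adjusted p = 0.017, 0.031, 0.045 and 0.049). GNL3 measured 9.90, 10.2 and 7.92 CPM in room-temperature Bama and 15.0, 11.9 and 15.1 CPM in the cold, and 9.97, 9.71 and 12.4 CPM against 17.1, 26.0 and 17.9 CPM in Hezuo. It did not overlap between temperatures in either breed, and its call held in all 12 fits that each left out a library, whereas that of DDX52 held in 4, RRS1 in 1 and PPAN in 1. Over 10 other settings GNL3 was called in 9, with adjusted p up to 0.184, and not with Y-linked RNA as a covariate. The 17 genes of RNA polymerase I and its factors, which transcribe the precursor of ribosomal RNA, had a median of 0.14. Of these, 0 passed the test in edgeR against 2 in DESeq2, which called 11% of all genes. At an unadjusted p below 0.05 in edgeR 4 were higher, against 11.7% of all genes.

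Ribosomal proteins of the mitochondrion form a separate particle. Of 74 such genes 57 were positive and 17 negative, with a median of 0.15. The test called 3 of them, all higher, where 3.89% of all genes were called and 1.95% were called higher. These were MRPL38 at 0.59 ± 0.11, MRPS12 at 0.62 ± 0.15 and MRPS5 at 0.42 ± 0.11 (adjusted p = 0.019, 0.042 and 0.046). Without 1 library MRPL38 was called in 11 of 12 fits, MRPS12 in 2 and MRPS5 in 1. MRPL38 also rose within Bama, from 37.9 ± 3.73 to 68.04 ± 5.47 CPM (0.84 ± 0.15, adjusted p = 0.034), a call kept in 6 of 12 such fits. Over 11 other settings the Bama call was kept in 9, with adjusted p up to 0.742.

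Among 40 regulators of mTORC1 and of TOP messenger RNAs the median was 0.05, and 2 fell, where 3.89% of all genes were called and 1.94% were called lower. RRAGD, a Rag GTPase that recruits mTORC1 to the lysosome, measured 3.27, 6.57 and 2.93 CPM in room-temperature Bama and 1.17, 2.01 and 0.820 CPM in the cold, and 1.73, 2.40 and 1.82 CPM against 0.903, 0.345 and 0.408 CPM in Hezuo (-1.76 ± 0.33, adjusted p = 0.020). TSC2, a brake on mTORC1, stood at -0.36 ± 0.08 (adjusted p = 0.040). MTOR and LARP1 stood at 0.29 and 0.27 and did not pass the test. Among partners of the 5S particle NOP53, which takes part in 60S assembly and binds RPL11, fell by 0.47 on the log2 scale (SE 0.10, adjusted p = 0.029), while MDM2 stood at 0.09. Of 21 genes of ribosome quality control and the integrated stress response, 1 was called, where 3.89% of all genes were called and 1.95% were called higher. This was PELO, which rescues stalled ribosomes and rose at 0.54 ± 0.13 (adjusted p = 0.042). Without 1 library RRAGD was called in 10 of 12 fits, NOP53 in 4, PELO in 2 and TSC2 in 1, and over the other settings their largest adjusted p were 0.20, 0.264, 0.322 and 0.276.

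**Figure D5:**
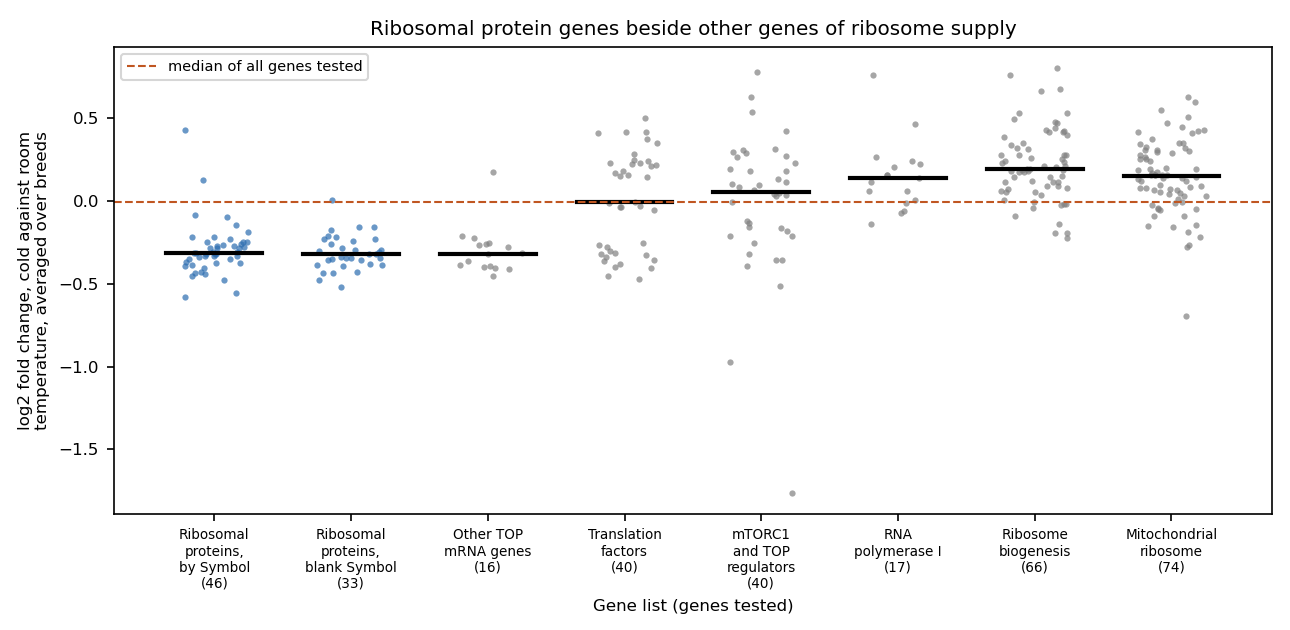
Log2 fold change in the cold, averaged over breeds, for ribosomal protein genes (blue) and other gene lists of ribosome supply (grey), with list medians as black bars and the median of all genes tested as a dashed line. Both ribosomal protein sets and the other TOP genes have medians near -0.32, and the lists for biogenesis and the mitochondrial ribosome have medians of 0.19 and 0.15.

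Between breeds, 1 of the 66 biogenesis genes was called at room temperature, where 1.08% of all genes were called. In the cold, 2 of the 66 and 1 of the 21 genes of ribosome quality control were called, against 2.76% of all genes. No other gene of these lists was called between breeds, so the calls are few beside those shares. AAMP, a WD-repeat protein of the biogenesis list, was higher in Hezuo by 0.64 ± 0.12 at room temperature and 0.59 ± 0.12 in the cold. RIOK1, a kinase of late 40S maturation, was higher in cold Hezuo by 0.74 ± 0.14. EIF2AK2, the antiviral kinase that stops initiation, was lower in cold Hezuo, at 62.8 ± 13.3 CPM against 156 ± 40.7 CPM in Bama (-1.31 ± 0.21, adjusted p = 0.012). With Y-linked RNA as a covariate EIF2AK2 was still called (edgeR adjusted p = 0.0184), but RPL3L, RIOK1 and AAMP were not in the cold (0.0648, 0.0753 and 0.0782), nor AAMP at room temperature (0.538). Without 1 library EIF2AK2 was called in 11 of 12 fits, RIOK1 in 8 and AAMP in 6 at each temperature.

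Cell type markers also differed with breed, in comparisons that called 1.08% of all genes at room temperature and 2.76% in the cold. Of 12 markers of T and NK cells, 12 were lower in Hezuo at room temperature (median -1.37, 1 called) and 11 in the cold (median -1.01, 2 called). Of 12 rows of hepatocyte markers 11 were higher in cold Hezuo pigs, where 1 was called, and 10 at room temperature, where 0 were called by edgeR. At room temperature 2 were higher and 1 lower at an unadjusted p below 0.05, beside 1344 higher and 1339 lower of all 13532 genes. All 7 markers of cycling cells were lower in Hezuo at both temperatures, with medians of -1.44 at room temperature and -0.39 in the cold, and 0 were called. The part of these markers in the breed differences was not tested.

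Markers of cell types moved with temperature as well. The 12 rows of hepatocyte markers summed to between 132287 and 147292 CPM in room-temperature Bama and between 47694 and 112578 CPM in the cold. In Hezuo they summed to between 178436 and 198516 against 86089 and 166143 CPM. Averaged over breeds, 4 rows were called lower and 1 higher, in a comparison that called 1.94% of all genes lower and 1.95% higher. The 10 markers of stellate cells and fibroblasts summed to between 2428 and 4559 CPM against 910 and 1409 CPM in Bama. In Hezuo they summed to between 1849 and 2878 against 1117 and 1668 CPM. In the same averaged comparison 5 of the 10, collagens among them, were called lower. For both lists the sums did not overlap between temperatures in either breed, and no marker of these lists was at 0 in all 12 libraries. Sums of 6 cholangiocyte markers did not overlap either, and were higher in the cold. They lay between 73.3 and 75.4 against 84.7 and 104 CPM in Bama, and 97.5 and 121 against 145 and 373 CPM in Hezuo. Averaged over breeds, 0 of these 6 were called. The 12 markers of Kupffer cells summed to between 3011 and 3970 against 3752 and 6202 CPM in Bama. In Hezuo they summed to between 2252 and 3452 against 3198 and 5045 CPM. The sums overlapped between temperatures in both breeds, and 1 marker was called higher averaged over breeds. Their part in the lower ribosomal protein levels was not tested.

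Circular RNAs, closed loops read across a back-splice junction, were scarce from these genes. The 47 rows hosted 2 of 24177 circular RNAs and 59 of 625980 back-splice counts, or 0.00943%, against 1.17% of gene counts. Of the members with counts, 4.35% hosted a circular RNA, against 34.5% of all genes with counts. The RPSA circle, made of annotated exons on chromosome 13 from 24074311 to 24075912 on the plus strand, as deposited, with a build that the sources used here do not name, has a spliced length of 285 bases. It had 0, 1 and 2 counts in room-temperature Bama, 5, 1 and 5 in cold Bama, 4, 6 and 14 in room-temperature Hezuo and 1, 2 and 14 in cold Hezuo. These counts are few, and no comparison was called, the smallest adjusted p being 0.202 for Hezuo against Bama at room temperature, where 0.454% of circular RNAs were called. In the other comparisons between 0.0886% and 0.421% were called. The other, from RPL3, had 4 counts in all and was not tested.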

How the data were processed

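Per the labels' protocols, TRIzol was used to isolate liver RNA, ribosomal RNA was removed and libraries kept the strand. The authors deposited a gene table holding each gene's expected count and FPKM in 12 libraries, and a table of circular RNAs with back-splice counts and RPM. The submitters' processing notes name fastp for read trimming; the sources used here name no aligner, counter or build. FPKM served only to compare levels between genes.

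Expected counts, 9.48% of which (nonzero values) were fractional, were rounded. Genes passing filterByExpr (13532) were fitted in edgeR 4.0.16 (R 4.3.3) with TMM scaling and robust quasi-likelihood over 4 groups, with Benjamini-Hochberg adjustment over all genes and a threshold of 0.05. The contrasts were cold against room temperature in each breed and averaged over breeds, breed at each temperature, and their interaction. DESeq2 1.42.0, other scalings and filters, gene length offsets, a covariate for Y-linked RNA, a replicate block and leaving out each library were alternatives. The procedure was tested on simulated data.

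Names came from the table (14970 rows), RefSeq (1412) or Ensembl identifiers (183), and 4604 rows stayed unnamed. The titles number separate pigs; the labels give no extraction or sequencing batch. Genes named in the text were, per contrast, those called or the 4 with the smallest p, the 4 highest and 4 lowest by FPKM, members with a known special role or a paralog, the extremes over breeds, and called genes of the other lists. Members and lists were chosen with earlier results of these data known, and the rows without a symbol were added after the table was seen. RPL39L was not analysed here. No sequences were used here. Some genes are counted but not reported here by name, 1 of them a member that is left out of the plots that label genes.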

Additional observations from a re-analysis of the deposited data

How the results depend on the processing

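Over the 12 fits that each left out a library, the median log2 fold change of the 46 genes in the cold stayed negative, between -0.3507 and -0.1379 in Hezuo, between -0.4381 and -0.2482 in Bama and between -0.3597 and -0.231 averaged over breeds. The breed medians crossed 0, between -0.09631 and 0.0937 at room temperature and between -0.01021 and 0.2242 in the cold, as did the breed difference in response, between -0.005806 and 0.2045. With library totals alone the breed medians were -0.1972 at room temperature and -0.2095 in the cold, and the cold medians -0.2213 in Hezuo and -0.2068 in Bama. With the covariate for Y-linked RNA the medians were -0.1863 in Bama, 0.2238 between breeds at room temperature and -0.0966 for the breed difference in response. The number of members called in Bama was 3 with DESeq2, and between breeds at room temperature 1 with DESeq2. Between breeds in the cold, 0 were called with upper quartile scaling, gene length offsets, the Y covariate, the replicate block or only the 2 groups compared, 2 with library totals, and 0 to 1 without a library. Averaged over breeds, 2 were called with upper quartile scaling or gene length offsets, 0 without a filter, with the Y covariate or with the replicate block, 15 with DESeq2, and 0 to 3 without a library. Without the 10 most abundant genes the members held 1.696% and 1.38% of counts in Bama at room temperature and in the cold, and 1.544% and 1.244% in Hezuo. With a minimum of 10 counts, 1 circular RNA of a member remained. RPL3L in the cold, at 0.03 in Hezuo and not called, was 0.3039 without Hezuo cold replicate 2 and turned negative with upper quartile scaling (-0.02126), length offsets (-0.0006089) or without Hezuo room replicate 3 (-0.02911), cold replicate 1 (-0.1987) or cold replicate 3 (-0.03067). Averaged over breeds it turned positive with library totals (0.00724), the Y covariate (0.09678), or without Bama cold replicate 1 (0.05197) or Hezuo cold replicate 2 (0.055). RPS14 between breeds at room temperature was 0.1438 with the Y covariate, and RPS27A in the cold -0.004921 with library totals. The causes of these changes were not tested. Correlations of deviations ran from -0.1984 to 0.148 between same-numbered animals of different groups and from -0.244 to 0.1676 between differently numbered ones. Between the Bama groups the same-numbered animals had 0.1375, 0.148 and 0.02228, above the differently numbered ones (-0.1553 to 0.008221). Between the Hezuo groups they had -0.08305, 0.07868 and -0.01423, within the range of the others (-0.08924 to 0.1114). The numbers were not taken as pairs. Under the replicate block the edgeR adjusted p was 0.072 for RPL11 averaged over breeds and 0.0842 for RPL3L between breeds in the cold. Of the biogenesis genes 15 were called with library totals, 13 with DESeq2, 7 with the replicate block and 0 with the Y covariate, against 4.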
